A study of Mus musculus with 12 samples.

Results

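The genes described here are 10 genes of the endoplasmic reticulum stress response, chosen by name and not by a rule on their values, but with earlier results of these data known: Hspa5, Hsp90b1, Calr, Pdia4, Dnajb9, Herpud1, Xbp1, Atf4, Ddit3 and Trib3. They are 10 of the 22923 gene symbols measured, and all 10 passed the filter on low values, as did 11945 genes in all. The RNA came from the proximal hind limb muscle of 12 mice at 22 weeks of age, on the FVB background (FVB/N in the study's methods), with 3 mice in each of 4 groups. WT mice, which the sample titles call Flox, were kept on normal chow or on a high fat diet, and mice that lack both αB-crystallin (Cryab) and HspB2 (Hspb2) in every tissue, the KO, were kept on the same diets. Cryab and Hspb2 are neighbouring genes for small heat shock proteins, and the study asked how muscle transcripts depend on genotype and diet in mice that were followed for weight and glucose handling. The deletion removes both genes at once, so the loss of either alone cannot be told apart.

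Proteins made for the membrane, the cell surface or secretion fold inside the endoplasmic reticulum with the help of chaperones, lectins and disulphide isomerases. When unfolded protein builds up there, the membrane sensors PERK, IRE1 and ATF6 start a response. PERK slows translation while favouring the transcription factor ATF4, IRE1 splices the Xbp1 mRNA so that it encodes an active transcription factor, and ATF6 is cut to release a further one. Their targets include the folding machinery and the degradation of misfolded protein, and under lasting stress the factor CHOP, encoded by Ddit3. In skeletal muscle a specialised form of this organelle, the sarcoplasmic reticulum, stores calcium, and calreticulin (Calr) and BiP (Hspa5) bind calcium there.

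The shared regulatory sequence of these genes is printed first. It divides them into those with the letters of a known stress element close to the RefSeq gene start and those without. Promoters were taken from RefSeq on the mouse genome build GRCm38.p6, as 300 bases around each gene start, and all 10 genes matched 1 promoter each. Searched on both strands were 4 motifs, namely ERSE (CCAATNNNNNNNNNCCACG), ERSE-II (ATTGGNCCACG), the core of UPRE (TGACGTG) and CARE (TGATGNAA). ERSE and ERSE-II are known sites of ATF6, UPRE of XBP1 and ATF6, and CARE of ATF4 and CHOP. ERSE and ERSE-II share the letters CCACG, and no 2 matches overlapped in these genes. The windows that hold the matches upstream of the gene start are given below, read 5′ to 3′ on the strand of the gene, with the matched letters in capitals.

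Hspa5, chr2:34771933-34772043, plus strand, UPRE then ERSE: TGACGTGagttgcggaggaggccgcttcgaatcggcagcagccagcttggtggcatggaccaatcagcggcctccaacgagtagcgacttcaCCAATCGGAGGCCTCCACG
Hsp90b1, chr10:86705533-86705656, minus strand, ERSE then ERSE on the opposite strand: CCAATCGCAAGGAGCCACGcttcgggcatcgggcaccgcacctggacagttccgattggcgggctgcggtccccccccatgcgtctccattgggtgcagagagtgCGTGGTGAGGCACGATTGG
Calr, chr8:84847034-84847133, minus strand, ERSE on the opposite strand: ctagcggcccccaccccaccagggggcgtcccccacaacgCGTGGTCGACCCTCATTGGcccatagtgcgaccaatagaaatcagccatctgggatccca
Herpud1, chr8:94386303-94386402, plus strand, CARE on the opposite strand then ERSE-II: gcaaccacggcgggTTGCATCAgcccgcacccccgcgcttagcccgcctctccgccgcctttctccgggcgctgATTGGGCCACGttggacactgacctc

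The 10 genes were chosen as genes of this response and include known targets of these elements, so the shares below describe the set and test nothing. ERSE stood in the promoters of 3 of the 10 genes, the chaperones Hspa5, Hsp90b1 and Calr, against 39 of 32851 promoters in the table (0.119%). Distances are counted from the RefSeq start, which lies 120 bases downstream of the outermost GENCODE start for Hspa5 and 65 bases for Hsp90b1, so the ERSE of Hspa5 falls inside the GENCODE span given below. The first base of ERSE lay 65 bases before the start of Hspa5, 162 before that of Calr, and 212 and 107 before that of Hsp90b1. ERSE-II was found in Herpud1, 52 bases before the start, and in 12 promoters in all (0.0365%). UPRE was found in Hspa5 alone of the 10, and in 661 promoters (2.01%). CARE was found in Herpud1, 112 bases before the start, and in Trib3, 14 bases after it, and in 1304 promoters (3.97%). No match stood in the windows of Pdia4, Dnajb9, Xbp1, Atf4 or Ddit3, which says only that these letters are not in these 300 bases. For Dnajb9 the RefSeq start lies 258 bases downstream of the outermost GENCODE start. Its window therefore lies inside the GENCODE span, and the bases before that outermost start were not searched.

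**Figure D1:**
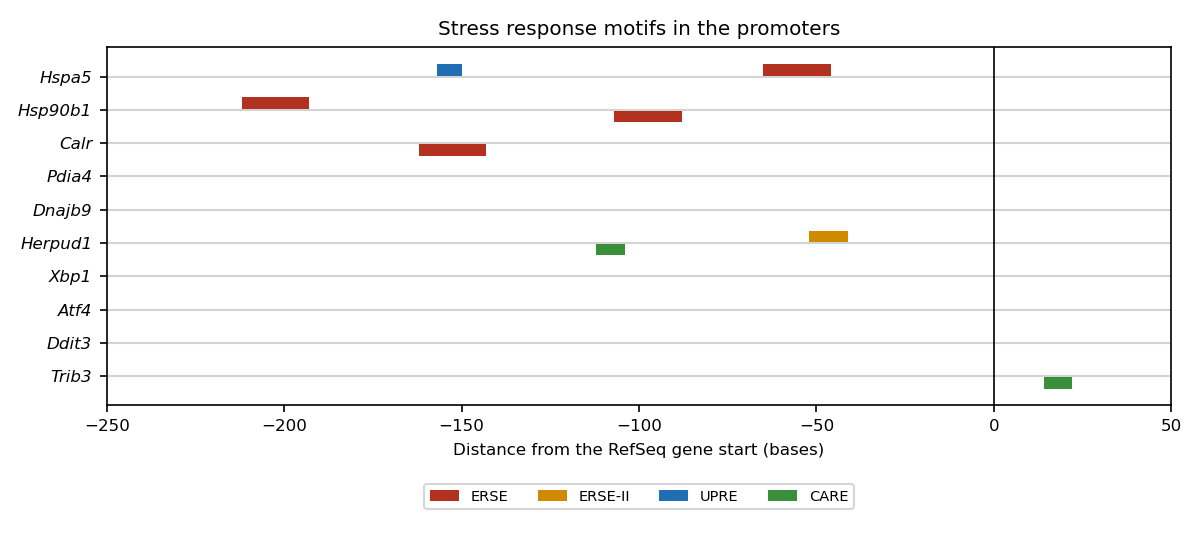
Matches of 4 motifs in the promoters of the 10 genes, plotted as coloured boxes by distance from the RefSeq gene start in bases, with boxes above a line on the strand of the gene and boxes below it on the opposite strand. Hspa5, Hsp90b1 and Calr carry ERSE upstream of the start, Herpud1 carries ERSE-II and CARE, Trib3 carries CARE after the start, and 5 genes carry none of the 4.

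Expression was given as FPKM, fragments per kilobase of transcript scaled to the mapped fragments of the library, so that levels of different genes can be set side by side per length. Cryab lay between 411.6 and 837.0 FPKM in the 6 WT samples and between 0.845 and 1.75 FPKM in the 6 KO samples. Hspb2 lay between 81.5 and 103.0 FPKM in WT and between 0.353 and 1.92 FPKM in KO, so each library stands with the genotype of its title, although the genotype entry of 6 samples conflicts with the title. Of the 7 fibre markers, Myh4, the fastest myosin, is listed at 0 in all 12 samples, as Acta1 is in some, while the sum of the list reached 55830 to 102700 FPKM. In 3 chow libraries, WT replicate 2 and KO replicates 1 and 3, the summed 7 markers of B and T cells came to 62.0 to 68.8 FPKM, against 0.409 to 5.91 FPKM in the other 9. The sum of 2 neutrophil markers was highest in WT high fat replicate 1 at 899.9 FPKM, and the sum of 5 adipocyte markers was lowest there at 3.43 FPKM. Relative depth, read from the steps between low values, differed by at most 1.37 times, and the number of reads is unknown. The FPKM summed over all symbols came to 10660000 in KO chow replicate 3, against 499500 to 691600 in the other libraries. Its fibre marker sum, 61540 FPKM, lay within the range of the others. Whether the large total bears on other values of that library was not tested. In whole muscle, a change in the share of a cell type and a change in RNA per cell cannot be told apart.

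By their mean over 12 samples the 10 genes spread from 115.3 FPKM for Atf4 to 1.31 FPKM for Trib3. Between these stood Herpud1 at 103.4, Calr (87.3 to 115.4 over the samples), Hspa5 at 74.8, Xbp1 at 52.9, Hsp90b1 at 51.8, Dnajb9 at 33.8, Ddit3 at 17.1 and Pdia4 at 9.09 FPKM. Of the 10, 6 lay above 88% of all tested genes in mean level (88.8% for Hsp90b1, 94.8% for Atf4), and Trib3 lay above 8.47%. Neighbours in this order whose ranges over samples overlapped were Atf4 and Herpud1, Herpud1 and Calr, Xbp1 and Hsp90b1, and Ddit3 and Pdia4. The ranges of the other 5 pairs of neighbours did not overlap. Within a gene the highest sample exceeded the lowest by 1.32 times for Calr and by up to 2.75 times for Trib3, which reached 1 FPKM in 10 of 12 samples.

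**Figure D2:**
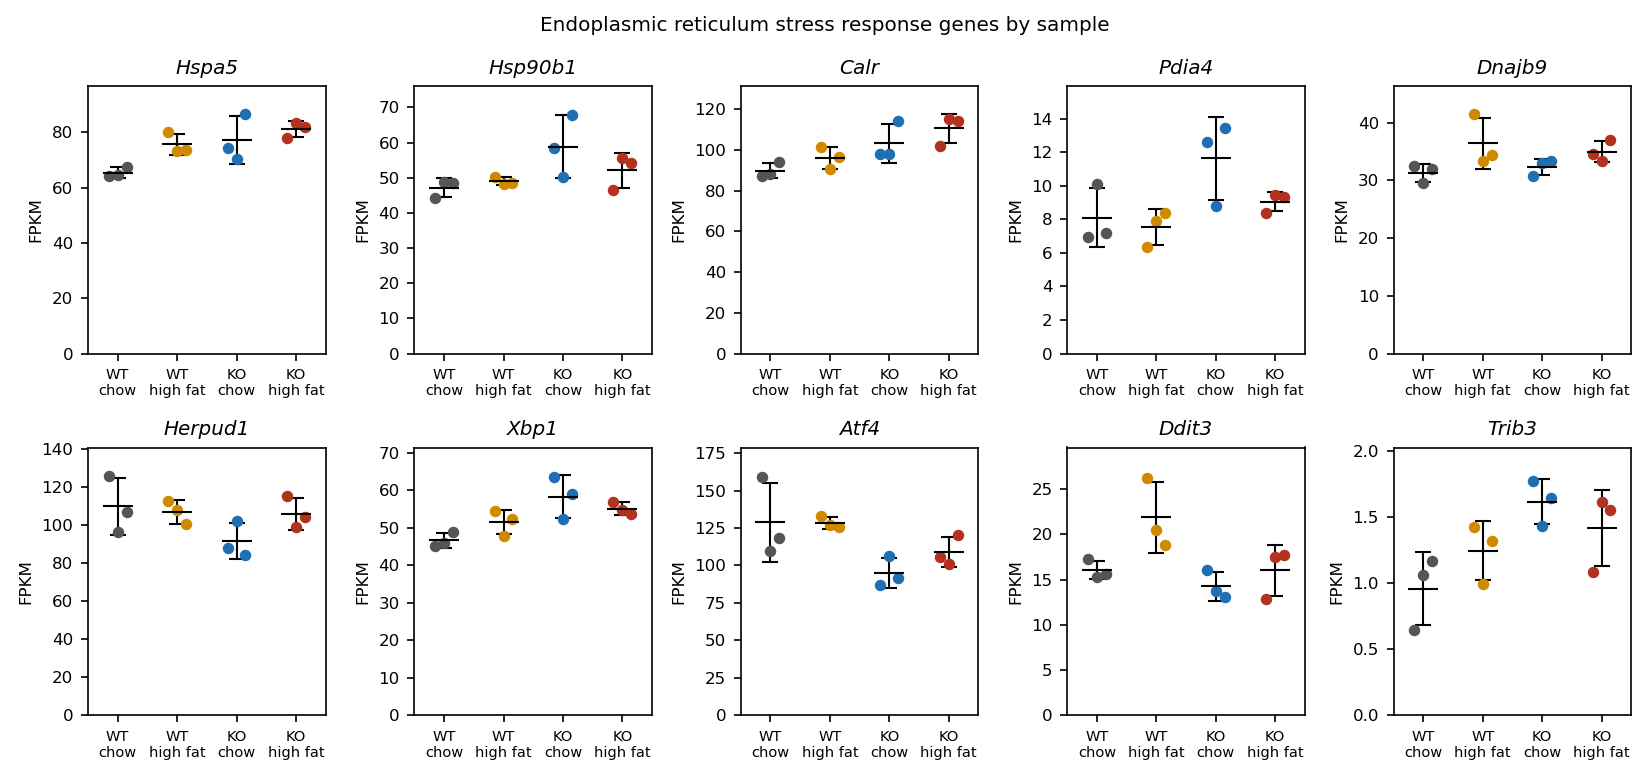
FPKM of each of the 10 genes in each of 12 samples (points), by group, with the mean (bar) and SD (whiskers) of 3 mice; each panel has its own axis from 0. Calr and Hspa5 lie higher in the KO groups than in WT mice on chow, Atf4 lies lower in KO mice than in WT mice on both diets, and Ddit3 is highest in the WT high fat group.

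Hspa5 encodes BiP, the most abundant chaperone of the lumen, which also holds the stress sensors inactive. It lies on the plus strand at 34771970 to 34777547 of chromosome 2 (GENCODE M21 annotation of GRCm38, as for all positions of genes here). Its level was 64.1, 64.7 and 67.6 FPKM in WT chow, 80.1, 73.2 and 73.5 in WT high fat, 74.4, 70.3 and 86.8 in KO chow, and 77.9, 83.3 and 82.0 in KO high fat samples. The 3 WT chow samples were the lowest of all 12 and overlapped neither with the WT high fat nor with the KO chow samples. The KO chow group exceeded the WT chow group by 0.23 on the log2(FPKM + 1) scale (SE 0.09, limma adjusted p = 0.281). The WT high fat group exceeded the WT chow group by 0.20 (SE 0.09, limma adjusted p = 0.582).

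Hsp90b1 encodes GRP94, the HSP90 of the endoplasmic reticulum, which folds among others the Toll-like receptors, integrins and insulin-like growth factors. Its span (chromosome 10, 86690209 to 86705509, minus strand) also holds 1810014B01Rik on the plus strand, Gm15344 and Gm25745. The library kit named in the labels does not mark strand, so reads of such partners cannot be told apart. Its level was 44.1, 48.9 and 48.6 FPKM in WT chow, 50.3, 48.3 and 48.4 in WT high fat, 58.5, 50.1 and 68.0 in KO chow, and 46.5, 55.6 and 54.2 in KO high fat samples. All KO chow samples lay above all WT chow samples, and the 2 highest of the 12 were the KO chow libraries rich in B and T cell markers. The difference by genotype on chow was 0.30 (SE 0.11, limma adjusted p = 0.281), and on high fat diet it was 0.08 (SE 0.11, limma adjusted p = 0.787).

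Calr encodes calreticulin, the lectin chaperone that retains glycoproteins until they fold and buffers calcium (chromosome 8, 84841850 to 84846934, minus strand). Its level was 87.3, 88.1 and 94.1 FPKM in WT chow, 101.4, 90.6 and 96.6 in WT high fat, 97.9, 97.9 and 114.4 in KO chow, and 102.2, 115.4 and 114.3 in KO high fat samples. On each diet the KO samples lay above the WT samples without overlap. The difference by genotype was 0.20 on both diets (SE 0.09, limma adjusted p = 0.304 on chow and 0.313 on high fat diet).

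Pdia4 encodes ERp72, a disulphide isomerase (chromosome 6, 47796141 to 47813430, minus strand), in a span that also holds Mir704. Its level was 6.94, 10.1 and 7.22 FPKM in WT chow, 6.34, 7.93 and 8.37 in WT high fat, 12.6, 8.83 and 13.5 in KO chow, and 8.40, 9.43 and 9.35 in KO high fat samples. The KO samples on high fat diet lay above the WT samples on that diet by a small margin, and on chow the groups overlapped. On the log2(FPKM + 1) scale the genotype difference was the largest of the 10 genes on chow, 0.47 (SE 0.17, limma adjusted p = 0.277). By the ratio of mean FPKM, Trib3 (0.957 in WT and 1.61 in KO chow) exceeded Pdia4 (8.09 and 11.65). The 3 highest values, 10.1 to 13.5 FPKM, belonged to the 3 libraries rich in B and T cell markers, and the other 9 lay between 6.34 and 9.43 FPKM.

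Dnajb9 encodes ERdj4, a co-chaperone of BiP that takes part in degradation and in the control of IRE1 (chromosome 12, 44205559 to 44210326, minus strand), in a span shared with Mir5627 on the plus strand. Its level was 32.4, 29.5 and 32.0 FPKM in WT chow, 41.5, 33.4 and 34.4 in WT high fat, 30.8, 33.0 and 33.3 in KO chow, and 34.5, 33.4 and 37.0 in KO high fat samples. In each genotype the samples on high fat diet lay above those on chow without overlap, in KO mice by a narrow margin. The diet difference was 0.21 in WT mice (SE 0.09, limma adjusted p = 0.597) and 0.11 in KO mice (SE 0.09, limma adjusted p = 0.619). Averaged over both diets the genotypes differed by 0.00 (SE 0.07), with a 95% interval from -0.15 to 0.14.

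Herpud1 encodes a membrane protein that organises the degradation complex (chromosome 8, 94386438 to 94395377, plus strand), in a span shared with Gm15890 on the minus strand. Its level was 125.6, 96.4 and 106.9 FPKM in WT chow, 112.7, 107.5 and 100.3 in WT high fat, 88.0, 101.9 and 83.9 in KO chow, and 115.1, 98.6 and 103.8 in KO high fat samples. The groups overlapped in all 4 comparisons of 2 groups. Its genotype difference on chow was -0.26 (SE 0.12, limma adjusted p = 0.297), and on high fat diet it was -0.01 (SE 0.12). Without WT chow replicate 1 the difference on chow was -0.16, and the unadjusted p stayed under 0.05 in 2 of the 12 fits that left out 1 sample. The 3 lowest values, 83.9 to 96.4 FPKM, belonged to the 3 libraries rich in B and T cell markers, against 98.6 to 125.6 FPKM in the other 9.

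Xbp1 encodes the transcription factor downstream of IRE1 (chromosome 11, 5520659 to 5525893, plus strand). One value per gene does not separate the spliced from the unspliced mRNA, so these values give its amount and not the activity of IRE1. Its level was 45.1, 46.0 and 48.9 FPKM in WT chow, 54.4, 47.9 and 52.3 in WT high fat, 63.6, 52.4 and 59.0 in KO chow, and 56.9, 54.8 and 53.6 in KO high fat samples. On chow every KO sample exceeded every WT sample, by 0.31 on average (SE 0.09, limma adjusted p = 0.263), the lowest unadjusted p of the 10 genes in a comparison of 2 groups. On high fat diet the groups overlapped and differed by 0.10 (SE 0.09, limma adjusted p = 0.654).

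Atf4 encodes the transcription factor downstream of PERK and of the other kinases that phosphorylate eIF2α (chromosome 15, 80255184 to 80257541, plus strand). ATF4 is controlled largely by translation, so its mRNA level is not a measure of its protein. Its level was 158.8, 109.5 and 118.2 FPKM in WT chow, 133.1, 127.2 and 125.4 in WT high fat, 86.8, 106.0 and 91.4 in KO chow, and 105.7, 100.9 and 120.2 in KO high fat samples. On each diet all KO samples lay below all WT samples. The genotype difference was -0.43 on chow (SE 0.14, limma adjusted p = 0.277) and -0.24 on high fat diet (SE 0.14, limma adjusted p = 0.413). WT chow replicate 1 was the highest of the 12 samples, and without it the difference on chow was -0.27 (SE 0.11), still at an unadjusted p under 0.05.

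Ddit3 encodes CHOP, the factor tied to cell death under lasting stress (chromosome 10, 127290829 to 127293753, plus strand). Its level was 17.2, 15.3 and 15.6 FPKM in WT chow, 26.3, 20.5 and 18.9 in WT high fat, 16.1, 13.7 and 13.03 in KO chow, and 12.8, 17.5 and 17.8 in KO high fat samples. The 3 WT samples on high fat diet were the highest of all 12 and overlapped with neither neighbouring group. The WT high fat group exceeded the WT chow group by 0.41 (SE 0.15, limma adjusted p = 0.401), and the KO high fat group differed from the WT high fat group by -0.43 (SE 0.15, limma adjusted p = 0.180). The highest value was that of WT high fat replicate 1, the library with the highest neutrophil and lowest adipocyte marker sums, and without it the diet difference in WT mice was 0.28 (SE 0.14, limma adjusted p = 0.967).

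Trib3 encodes a pseudokinase that binds AKT and is a target of ATF4 and CHOP (chromosome 2, 152337422 to 152344032, minus strand). Its level was 0.644, 1.06 and 1.17 FPKM in WT chow, 1.43, 0.994 and 1.32 in WT high fat, 1.77, 1.43 and 1.64 in KO chow, and 1.08, 1.62 and 1.55 in KO high fat samples. On chow all KO samples lay above all WT samples, by 0.43 on average (SE 0.14, limma adjusted p = 0.277). At about 1 FPKM a difference on the log2(FPKM + 1) scale understates the ratio of the levels, and depth limits the precision of single values. Without WT chow replicate 1, the lowest sample, the difference was 0.31 (limma adjusted p = 0.809).

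**Figure D3:**
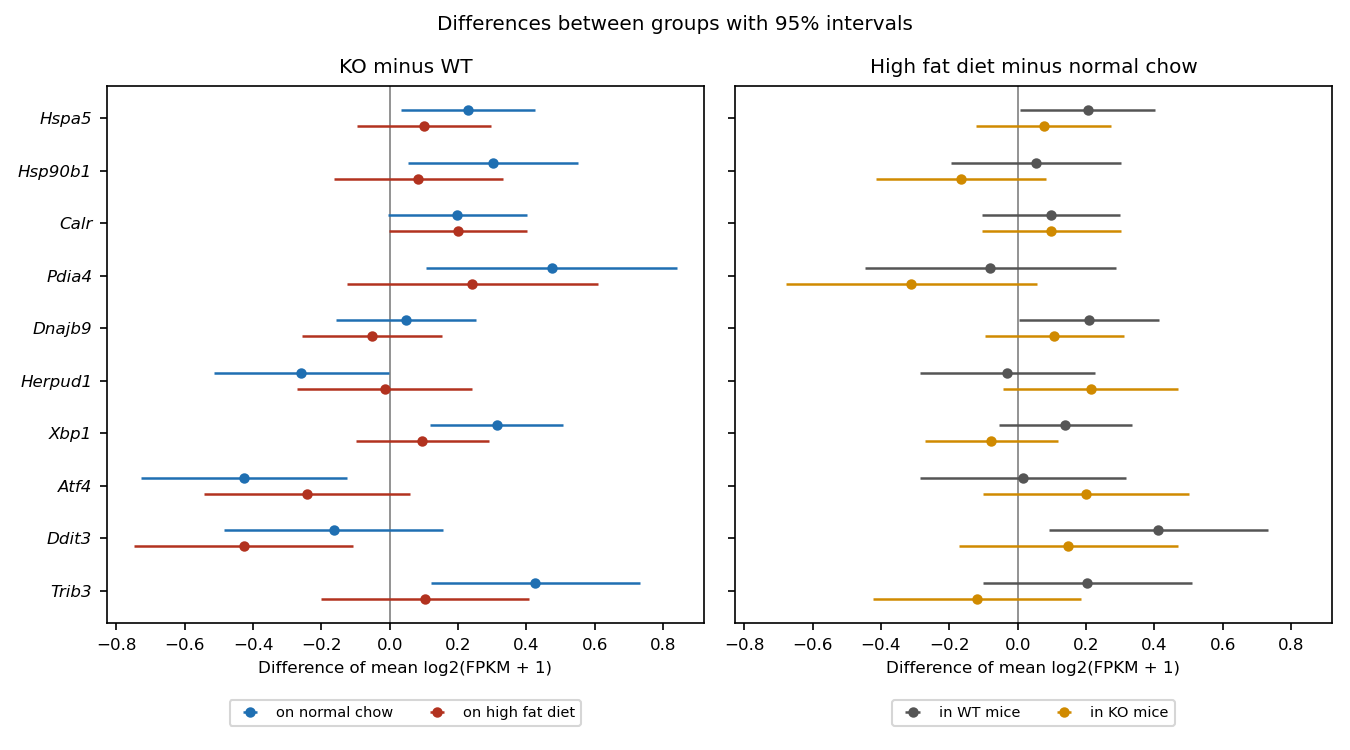
Differences of group means on the log2(FPKM + 1) scale for the 10 genes (points) with 95% intervals (lines), KO minus WT on each diet at left and high fat diet minus chow in each genotype at right. On chow the intervals of Hspa5, Hsp90b1, Pdia4, Xbp1 and Trib3 lie above 0 and those of Herpud1 and Atf4 below 0; on high fat diet only that of Ddit3 leaves 0 out.

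The comparison of KO with WT mice on chow asks what the deletion changes under normal feeding. By limma with Benjamini-Hochberg adjustment over all tested genes, 0 of the 10 genes passed 0.05, as did 7 of 11945 genes (0.0586%). At an unadjusted p under 0.05, 5 of the 10 were higher in KO mice (Hspa5, Hsp90b1, Pdia4, Xbp1 and Trib3), where 6.73% of all genes were, and 2 were lower (Herpud1 and Atf4), where 9.93% were. The groups did not overlap for 6 of the 10 (Hspa5, Hsp90b1, Calr, Xbp1, Atf4 and Trib3), against 18.4% of all genes. The median difference of the 10 was 0.21, beside -0.03 over all tested genes. Of the 4 lumenal chaperones and isomerases, 3 were among the higher genes, and of the 4 regulators 2 were among the higher (Xbp1 and Trib3) and 1 among the lower (Atf4), with Ddit3 at -0.16 (SE 0.15). The 7 genes at an unadjusted p under 0.05 became 2 (1 higher, 1 lower) without WT chow replicate 1, where the share of all genes in either direction went from 16.7% to 5.13%, and 3 without KO chow replicate 3, where it was 7.32%. They became 4 when only the 2 groups compared were fitted, where the share of all genes was 13.8%. They became 0 when the replicate block was added to that fit, where it was 4.90%.

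Among the chow libraries, 2 of the 3 KO chow libraries and 1 of the 3 WT chow libraries were those rich in B and T cell markers, and the sum of 4 plasma cell markers was 50.1 and 61.8 FPKM in these KO samples and 30.1 FPKM in that WT sample, against 3.08 to 7.85 FPKM in the other 9. Plasma cells are known for a large endoplasmic reticulum and high levels of its chaperones. Without these 3 libraries, which leaves 1 KO sample on chow whose spread is taken from the other groups, 0 of the 10 genes had an unadjusted p under 0.05 in this comparison, and the share of all genes went from 16.7% to 2.53%. The differences were then 0.09 for Hspa5, 0.11 for Hsp90b1, 0.28 for Pdia4, 0.15 for Xbp1, 0.37 for Trib3 and -0.37 for Atf4. The signs of all 10 were as before. What part the B, T and plasma cell RNA had in the chow differences was not tested further. Macrophage sums also differed on chow without overlap, at 61.5 to 81.8 FPKM in WT and 94.7 to 127.3 FPKM in KO samples. Endothelial sums did so at 73.0 to 75.8 FPKM in WT and 62.3 to 66.8 FPKM in KO samples. The part of these cells was not tested.

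**Figure D4:**
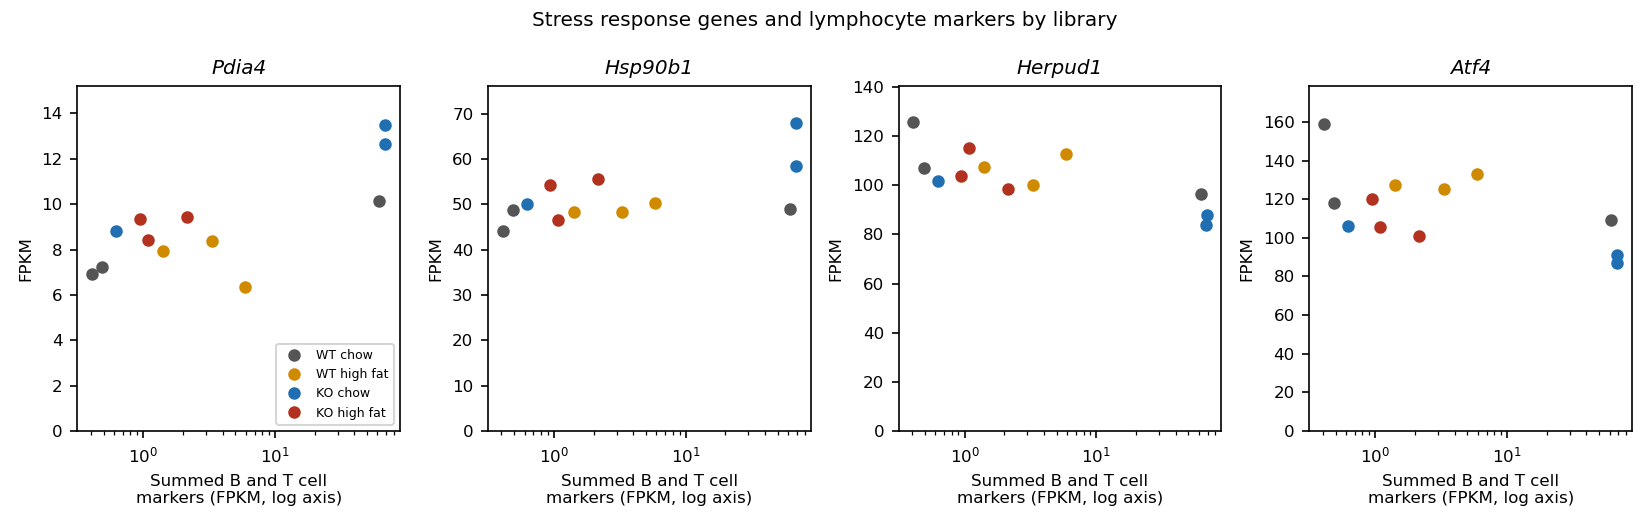
FPKM of 4 genes (vertical axes from 0) against the summed FPKM of 7 B and T cell markers (horizontal log axis), 1 point per library, coloured by group. The 3 libraries at the right, between 62.0 and 68.8 FPKM of markers, hold the 3 highest Pdia4 and the 3 lowest Herpud1 values.

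The comparison of KO with WT mice on high fat diet asks the same under high fat feeding, and none of the libraries rich in B and T cell markers is in it. Other marker sums did differ here without overlap. Neutrophil sums were 98.9 to 899.9 FPKM in WT and 9.24 to 33.7 FPKM in KO samples. Macrophage sums were 21.4 to 61.8 FPKM in WT and 79.9 to 167.9 FPKM in KO samples, and adipocyte sums 3.43 to 298.3 and 341.3 to 463.6 FPKM. Their part in the differences was not tested. Here 0 of the 10 genes passed the adjusted threshold of limma, as did 13 genes in all (0.109%). Ddit3 was the only one of the 10 at an unadjusted p under 0.05, lower in KO mice, where 6.45% of all genes were lower and 9.79% higher. The groups did not overlap for 4 of the 10 (Calr and Pdia4 higher, Atf4 and Ddit3 lower in KO mice), against 23.7% of all genes. Without WT high fat replicate 1 the difference of Ddit3 was -0.29, and without KO high fat replicate 1 it was -0.28, and in both fits its unadjusted p no longer passed 0.05.

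High fat feeding of WT mice gave 0 of 10 genes past the adjusted threshold of limma, beside 12 of all genes (0.1%). Of the 10, 3, namely Hspa5, Dnajb9 and Ddit3, were higher after high fat feeding at an unadjusted p under 0.05, where 4.42% of all genes were higher, and none were lower, where 3.7% were. The same 3 were those whose groups did not overlap, against 13.1% of all genes. In each of the 3 the highest WT value was WT high fat replicate 1, and without it none of the 3 had an unadjusted p under 0.05 (0.16, 0.11 and 0.28 on the log2 scale for Hspa5, Dnajb9 and Ddit3). In that fit the share of all genes in either direction went from 8.12% to 5.82%. Over the 12 fits that left out 1 sample, the unadjusted p was under 0.05 in 2 for Hspa5, 2 for Dnajb9 and 11 for Ddit3. The sum of neutrophil markers was 98.9 to 899.9 FPKM in the WT high fat group and 1.80 to 21.4 FPKM in the WT chow group, and its part in these differences was not tested.

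In KO mice 0 of 10 genes passed the adjusted threshold between the diets, as did 0 of all genes by limma (0%). At an unadjusted p under 0.05 there were 0 of the 10, where 6.56% of all genes were higher and 4.73% lower, and the groups did not overlap for 1 of the 10, Dnajb9, against 16.9% of all genes. The largest differences were -0.31 for Pdia4 (SE 0.17, limma adjusted p = 0.473) and 0.21 for Herpud1 (SE 0.12, limma adjusted p = 0.480). For both genes the values in the 2 KO chow libraries rich in B and T cell markers stood at the ends of their ranges. The same held for Hsp90b1, Xbp1 and Trib3 at the upper end and for Atf4 at the lower end. Without the 3 such libraries Pdia4 differed by 0.03.

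Whether diet acted differently in KO and WT mice was tested as an interaction. By limma 0 of the 10 genes passed the adjusted threshold, as did 0 of all genes (0%). None of the 10 reached an unadjusted p under 0.05 either, where 3.55% of all genes did so upward and 2.7% downward. The lowest p of the 10 was that of Xbp1 (-0.22, SE 0.12, limma adjusted p = 0.878). The differences of Ddit3 and Hspa5 between diets, 0.41 and 0.20 in WT mice and 0.15 and 0.08 in KO mice, are thus not shown to differ between the genotypes.

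Averaged over both diets, each genotype is represented by 6 mice, which lowers the SE. The 10 genes held 0 past the adjusted threshold of limma, where 103 of all genes passed (0.862%). At an unadjusted p under 0.05, 6 of the 10 were higher in KO mice (Hspa5, Hsp90b1, Calr, Pdia4, Xbp1 and Trib3) and 2 were lower (Atf4 and Ddit3), where 13.1% of all genes were higher and 13.4% lower. The lowest adjusted p was that of Atf4, which differed by -0.33 (SE 0.10, limma adjusted p = 0.0803). Xbp1 followed with 0.20 (SE 0.06, limma adjusted p = 0.0880), Calr with 0.20 (SE 0.07, limma adjusted p = 0.1001), Pdia4 with 0.36 (SE 0.12, limma adjusted p = 0.101) and Ddit3 with -0.30 (SE 0.10, limma adjusted p = 0.114).

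In the 12 fits that each left out 1 sample, the unadjusted p of Atf4, Xbp1, Calr, Pdia4 and Ddit3 in this averaged comparison stayed under 0.05 every time, that of Hspa5 in 8, Trib3 in 9 and Hsp90b1 in 5. Without KO chow replicate 2, the KO chow library that is poor in B and T cell markers, 3 of the 10 genes passed the adjusted threshold, Xbp1 at 0.24 (limma adjusted p = 0.0392), Atf4 at -0.38 (adjusted p = 0.0450) and Pdia4 at 0.44 (adjusted p = 0.0375), and 1200 of all genes did. Without the 3 libraries rich in those markers, 1 of the 10 was higher and 2 were lower at an unadjusted p under 0.05, and the share of all genes in either direction went from 26.5% to 11.5%. Several marker sums differed by genotype as well. Macrophage sums were 79.9 to 167.9 FPKM in KO and 21.4 to 81.8 FPKM in WT mice, and adipocyte sums 287.8 to 626.7 FPKM in KO and 3.43 to 309.3 FPKM in WT mice. Fibroblast sums were 766.6 to 1249 FPKM in KO and 537.1 to 925.9 FPKM in WT mice, and endothelial sums on chow were 62.3 to 66.8 FPKM in KO and 73.0 to 75.8 FPKM in WT mice. Their part in the genotype differences was not tested.

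Averaged over both genotypes, high fat feeding gave 0 of 10 genes past the adjusted threshold of limma, beside 7 of all genes (0.0586%). At an unadjusted p under 0.05, Hspa5 (0.14, SE 0.06), Dnajb9 (0.16, SE 0.07) and Ddit3 (0.28, SE 0.10) were higher on high fat diet, where 7.96% of all genes were, and 0 of the 10 were lower, where 5.94% were. Hsp90b1 and Pdia4 lay the other way at -0.06 (SE 0.08) and -0.20 (SE 0.12). The count of 3, beside 13.9% of all genes in either direction, became 0 without KO high fat replicate 3 (10.8% of all genes). It became 1 under the replicate block (10.6%) and under quantile normalization (12.9%). Leaving out WT chow replicate 2 (9.22%), WT high fat replicate 1 (9.69%), KO chow replicate 1 (9.85%) or KO high fat replicate 1 (15.45%) alone also gave 1. Without the 3 chow libraries rich in B and T cell markers, which leaves 1 KO sample on chow, Hsp90b1 and Pdia4 changed sign, to 0.07 and 0.05. Over the fits that left out 1 sample, the unadjusted p was under 0.05 in 1 of 12 for Hspa5, 7 for Dnajb9 and 11 for Ddit3.

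In all, 5 wider lists of the same response held 65 further genes, of which 63 were in the files and 60 were tested. They cover the sensors, the ATF4 arm, lumenal folding, degradation, and translocation and secretion. By limma 0 of these 60 passed the adjusted threshold in any of the 7 comparisons. Averaged over both diets, 21 of the 60 were higher in KO mice and 3 were lower at an unadjusted p under 0.05, where 13.1% and 13.4% of all genes were, and the median difference of the 60 was 0.11 beside -0.02 over all genes. On chow 13 of the 60 were higher (21.7%, against 6.73% of all genes) and 1 lower (1.67%, against 9.93%), and on high fat diet 9 were higher (15%, against 9.79%) and 1 lower (1.67%, against 6.45%). Without the 3 chow libraries rich in B and T cell markers, 7 of the 60 were higher (11.7%) and 1 lower (1.67%) averaged over both diets, where 7.28% and 4.23% of all genes were, and on chow 3 were higher (5%, against 1.29%) and 0 lower. For diet, with no sample left out, the shares were near or below those of all genes. They were 3 higher (5%, against 4.42%) and 1 lower (1.67%, against 3.7%) in WT mice, and 1 higher (1.67%, against 6.56%) and 2 lower (3.33%, against 4.73%) in KO mice. Over both genotypes they were 4 higher (6.67%, against 7.96%) and 3 lower (5%, against 5.94%). The interaction gave 0 higher, against 3.55%, and 2 lower (3.33%, against 2.7%). The median diet difference of the 60 was 0.009 in WT mice, -0.02 in KO mice and -0.01 over both genotypes. Without the 3 chow libraries it was 0.04, 0.05 and 0.06, beside -0.02, 0.01 and 0.0001 over all genes. That fit leaves 1 KO sample on chow.

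Of lumenal folding, 16 of 17 tested genes had a higher mean in KO mice averaged over both diets (94.1%, against 44.4% of all genes), 6 of them at an unadjusted p under 0.05 (35.3%, against 13.1%), and the median difference was 0.11. The 3 chow libraries rich in B and T cell markers also hold the plasma cell marker sums of 30.1 to 61.8 FPKM. Without them, which leaves 1 KO sample on chow, 11 of the 17 had a higher mean (64.7%, against 43.6%), and the median was 0.06. On high fat diet, where none of these libraries is compared, 13 of the 17 had a higher mean in KO mice (76.5%, against 47.1%). Of these, 4 had an unadjusted limma p under 0.05 (23.5%, against 9.79%), and the median was 0.06. Pdia6, a disulphide isomerase that also acts on the sensors, had the lowest p of this list averaged over both diets. It lay between 20.7 and 23.0 FPKM in the 6 WT samples and between 23.8 and 31.5 FPKM in the 6 KO samples. All 6 KO values exceeded all 6 WT values, by 0.30 on average (SE 0.07, limma adjusted p = 0.0633). Canx, the membrane-bound partner of calreticulin, lay at 24.1 to 26.4 FPKM in WT and 28.6 to 35.6 FPKM in KO mice on chow (0.27, SE 0.09, limma adjusted p = 0.277). The sensors had 4 tested genes, of which 3 had a higher mean in KO mice over both diets (75%, against 44.4% of all genes). Of the 4, 1 was higher at an unadjusted limma p under 0.05 (25%, against 13.1%).

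The ATF4 arm held the largest differences. Averaged over both diets, 5 of 13 tested genes were higher in KO mice at an unadjusted limma p under 0.05 (38.5%, against 13.1% of all genes). By the same rule 2 were lower (15.4%, against 13.4%), near the share of all genes. Asns, asparagine synthetase, lay at 1.45, 4.91 and 3.28 FPKM in WT and 11.1, 5.30 and 8.25 FPKM in KO mice on chow, and at 1.18, 1.60 and 2.03 FPKM in WT and 3.23, 3.13 and 3.47 FPKM in KO samples of the high fat diet. On each diet the KO samples were higher without overlap, by 0.95 over both diets (SE 0.21, limma adjusted p = 0.0563). Psat1, of serine synthesis, differed by 1.00 (SE 0.24, limma adjusted p = 0.0611), and on high fat diet it lay at 1.35, 3.03 and 4.37 FPKM in WT and 7.42, 7.64 and 8.12 FPKM in KO samples. Mthfd2, a mitochondrial enzyme of one-carbon metabolism, lay at 2.03 to 2.77 FPKM in WT and 3.25 to 6.55 FPKM in KO high fat samples (0.71, SE 0.24, limma adjusted p = 0.179). The list went both ways on that diet, with 8 of 13 genes at a higher mean in KO mice (61.5%, against 47.1% of all genes) and 5 at a lower mean. The 5, of which those other than Atf5 are named after their values were seen, were Atf5 (-0.44), Vldlr (-0.38), Cebpb (-0.34), Ppp1r15a (-0.27) and Ddit4 (-0.09).

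Atf5, a transcription factor translated like ATF4, had its highest values, like Ddit3, in WT mice fed the high fat diet. It stood at 42.2, 32.9 and 34.9 FPKM in WT chow, 58.3, 52.5 and 48.6 in WT high fat, 31.2, 37.5 and 33.6 in KO chow, and 36.1, 43.6 and 37.1 in KO high fat samples. The 3 WT samples on high fat diet were the highest of the 12. Its diet difference in WT mice was 0.53 (SE 0.12, limma adjusted p = 0.132), its genotype difference on high fat diet -0.44 (SE 0.12, limma adjusted p = 0.113) and its interaction -0.34 (SE 0.17, limma adjusted p = 0.831). Cebpb, a partner of CHOP, was 0.44 higher on high fat diet in WT mice (SE 0.15, limma adjusted p = 0.389) and had an interaction of -0.55 (SE 0.22, limma adjusted p = 0.738). Asns lay lower on high fat diet, by -1.06 in KO mice (SE 0.30, limma adjusted p = 0.360) and -0.84 over both genotypes (SE 0.21, limma adjusted p = 0.183). Its highest values, 11.1 and 8.25 FPKM, were those of the KO chow libraries rich in B and T cell markers. The other KO chow library stood at 5.30 FPKM, above the KO high fat samples at 3.13 to 3.47 FPKM. In WT mice the highest value, 4.91 FPKM, was that of the rich chow library. The part of these libraries in the diet difference was not tested.

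In the degradation list 4 of 12 tested genes were higher in KO mice averaged over both diets (33.3%, against 13.1% of all genes). A further 1 was lower (8.33%, against 13.4%), all at an unadjusted limma p under 0.05. Derl1, a channel subunit of that pathway, lay between 35.1 and 38.1 FPKM in the 6 WT and between 41.1 and 44.0 FPKM in the 6 KO samples, with a difference of 0.20 on chow (SE 0.07, limma adjusted p = 0.277). Ube2j1, a ubiquitin-conjugating enzyme of the same pathway, lay at 19.0 to 22.3 FPKM in WT chow samples and 16.0 to 16.8 FPKM on high fat diet (-0.29, SE 0.09, limma adjusted p = 0.311). Of translocation and secretion 5 of 14 genes were higher in KO mice over both diets by the same rule (35.7%, against 13.1% of all genes). None were lower, against 13.4%. On high fat diet, where none of the libraries rich in B and T cell markers is compared, 1 of these 14 was higher (7.14%, against 9.79%). For degradation it was 1 of 12 there (8.33%, against 9.79%), and 0 were lower in both lists, against 6.45%. Without the 3 chow libraries the median over both diets was 0.07 for degradation and 0.04 for translocation and secretion, beside 0.08 and 0.03 with all samples. Sec61g, of the translocation channel, differed between the diets by 0.24 over both genotypes (SE 0.08, limma adjusted p = 0.252) and by 0.24 in KO mice (SE 0.11). Of the folding genes named for diet, Ero1lb, an oxidase of disulphide bonds, differed by -0.48 in KO mice (SE 0.18, limma adjusted p = 0.431), with 2.40 and 2.47 FPKM in the KO chow libraries rich in B and T cell markers and 0.919 to 1.25 FPKM in the other 4 KO samples. Txndc5, an isomerase, had an interaction of -0.44 (SE 0.15, limma adjusted p = 0.672). It stood at 29.4 and 28.5 FPKM in the KO chow libraries rich in those markers and at 24.2 FPKM in the other KO chow library.

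**Figure D5:**
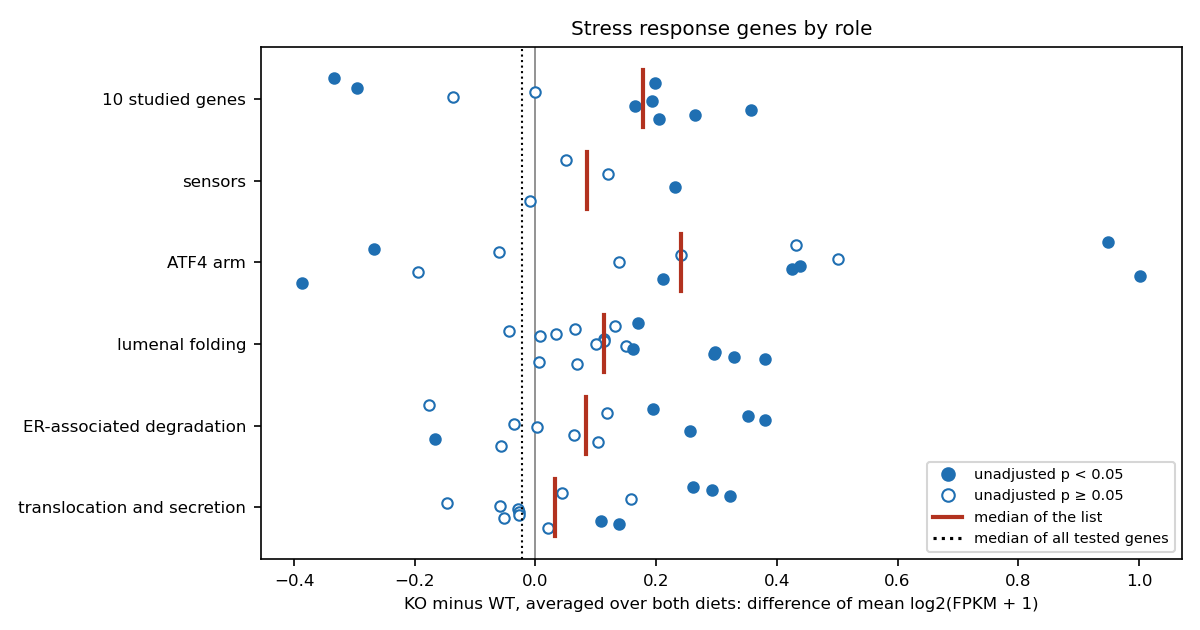
Difference of KO and WT means on the log2(FPKM + 1) scale, averaged over both diets, for the 10 genes and 60 further stress response genes by role (1 point per gene). Filled points have an unadjusted limma p under 0.05, red lines mark the median of each list and the dotted line that of all tested genes, -0.02; none of the genes passed the adjusted threshold.

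The letters of the stress elements were also sought in the wider lists, of which 50 genes had a promoter in the table. ERSE stood in 6 of these 50 (Canx, Creld2, Derl3, Dnajc3, Pdia6 and Syvn1), ERSE-II in 1 (Dnajb11), UPRE in 3 (Sec24d, Txndc5 and Ube2j1) and CARE in 7 (Asns, Atf3, Chac1, Fgf21, Nupr1, Txndc5 and Vldlr). These genes are named for the match and not for their values. The lists hold known targets of these elements, so the shares are a description of the lists. Of the 4 genes of the main set with ERSE or ERSE-II, the 3 with ERSE were higher in KO mice averaged over both diets, by 0.16 for Hspa5 (SE 0.06), 0.19 for Hsp90b1 (SE 0.08) and 0.20 for Calr (SE 0.07), with limma adjusted p of 0.136, 0.154 and 0.1001, and Herpud1 differed by -0.14 (SE 0.08).

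Across the 12 samples the 10 genes did not vary as 1 block. Hspa5 and Calr had the highest Pearson r of any pair on the log2(FPKM + 1) scale, 0.92, and 0.91 when the group means were removed. Atf4 and Herpud1 had r = 0.84 (0.79 within groups), Hsp90b1 and Pdia4 0.81 (0.65 within groups), and Xbp1 and Trib3 0.81 (0.50 within groups). Herpud1 lay opposite to Pdia4 with r = -0.90 (-0.88 within groups) and to Hsp90b1 with -0.86 (-0.77 within groups), and Atf4 lay opposite to Pdia4 with -0.85 (-0.65 within groups). Ddit3 and Atf4 had r = 0.57, and 0.25 within groups. All pairs share the same libraries, including the 3 rich in B and T cell markers at 1 end of the Pdia4 and Herpud1 values, and these correlations are a description.

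Of all tested genes, those most like each of the 10 over the 12 samples by Pearson r were the following, again as a description of shared libraries. Calr and Pex16 were most like Hspa5 (0.92 and 0.91), Hspa5 and Ehd4 most like Calr (0.92 and 0.90), Bahd1 and Slc25a5 most like Hsp90b1 (0.94 and 0.91), and Slc39a6 and Nadk most like Pdia4 (0.97 for both). Supv3l1 and Mtpap were most like Dnajb9 (0.91 for both), Immp1l and Lbx1 most like Herpud1 (0.95 for both), and Jmjd7 and 4930420K17Rik most like Xbp1 (0.88 and 0.87). Ube2b and 1110038B12Rik were most like Atf4 (0.97 for both), Mpzl1 and Egfl7 most like Ddit3 (0.95 and 0.94), and Sema6b and Plscr1 most like Trib3 (0.98 and 0.90). Hspa5 and Calr were the only 2 of the 10 that stood on each other's list, and Xbp1 had the weakest leading likeness.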

How the data were processed

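RNA of proximal hind limb muscle was made into libraries with an Illumina TruSeq RNA kit. The submitters' processing notes name TopHat2 2.0.8b, Cuffdiff 2.1.1 and mm10, without an order, and the annotation is not given in the sources used here. The authors deposited 1 table of FPKM values per sample, unpooled, with 23179 rows and 22923 symbols. The unit was read from the values. For the 256 symbols listed more than once, the entry with the highest mean was kept. Samples were grouped by title. A gene was tested if 3 or more samples reached 1 FPKM, which left 11945 genes. Two-sided limma tests (limma 3.58.1, R 4.3.3) were run on log2(FPKM + 1), fitting 4 group means and an intensity trend of the variance, which left 8 residual degrees of freedom, and p-values were adjusted by Benjamini-Hochberg at 0.05. The script was tested on simulated data. Reads per library are unknown, and whether the mice of a group came from separate litters or cages is not given. P-values measure the spread between these samples.

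The 10 genes and the wider lists were chosen with earlier results of these data known. Named were the 10 genes, Cryab and Hspb2, in each comparison the 3 genes of the wider lists with the lowest p where none passed the threshold, and for each of the 10 the 2 genes with the highest Pearson r. Alternatives were a pseudocount of 0.1, no filter, a replicate block, quantile normalization, the 2 compared groups alone, and each sample left out. Leaving out the 3 chow libraries rich in B and T cell genes, and the block with the 2 compared groups alone, were chosen after seeing the data. All 10 genes passed the filter, so the exact permutation test kept for genes below it was not needed. Python 3.11.15 (pandas 2.3.3, NumPy 2.4.6) gave the other values.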

Additional observations from a re-analysis of the deposited data

How the results depend on the processing

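The genes of the set of 10 past the adjusted threshold of limma numbered 0 under every alternative in each comparison it was run for (all 7, or the 4 between 2 groups where only the groups compared were fitted), with 1 exception, 3 genes in the genotype comparison averaged over both diets without KO chow replicate 2 (range over samples left out 0 to 3). Of 1270 alternative values of the 70 differences, 1223 kept their direction and their side of the threshold, 44 changed sign and 3 passed the threshold. Counts over all genes moved more. Beside 12 genes for diet in WT, 0 for diet in KO, 7 for genotype on chow, 13 for genotype on high fat, 0 for the interaction, 103 for genotype averaged and 7 for diet averaged, no filter on low values gave 6 for diet in KO, 24 for genotype on high fat, 1 for the interaction and 42 for genotype averaged. Quantile normalization gave 9 for diet in KO, 26 for genotype on high fat and 200 for genotype averaged, and moved no median over all genes by more than 0.1. Fitting only the 2 groups compared gave 3 for diet in WT, 15 for diet in KO, 4 for genotype on chow and 8 for genotype on high fat. Without the 3 chow libraries rich in B and T cell genes there were 1 for diet in WT, 11 for genotype averaged and 1 for diet averaged. Leaving out each sample in turn gave 1 to 32 for diet in WT, 0 to 10 for diet in KO, 4 to 14 for genotype on chow, 4 to 82 for genotype on high fat, 0 to 1 for the interaction, 10 to 1200 for genotype averaged and 1 to 18 for diet averaged. The cause of these shifts was not tested.

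Replicate numbers come from the titles. Correlations of same-numbered samples after removal of group means were -0.09 to 0.39 for diet in WT and -0.30 to -0.11 for diet in KO. They were -0.81 to -0.27 for genotype on chow and -0.07 to 0.02 for genotype on high fat. For diet in WT, 2 of the 3 same-numbered pairs exceeded 0.1, and a differently numbered pair reached 0.31. With 3 samples per group these correlations cannot decide whether the numbers pair the samples. The replicate block left all calls of the 10 genes at 0 and gave, over all genes, 7 for diet in WT, 4 for genotype on chow, 5 for genotype on high fat, 40 for genotype averaged and 1 for diet averaged. With the block and only the 2 groups compared there were 3 for diet in KO, 2 for genotype on chow and 27 for genotype on high fat.

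Differences that changed sign were small. Under quantile normalization they were Atf4 (-0.063) for diet in WT, Hspa5 (-0.083) and Calr (-0.061) for diet in KO, Herpud1 (0.033) for genotype on high fat, Calr (-0.078) for the interaction, Dnajb9 (0.038) for genotype averaged, and Xbp1 (-0.070), Atf4 (-0.0096), Herpud1 (-0.0040) and Calr (-0.022) for diet averaged. Without the 3 chow libraries they were Atf4 (-0.091) and Pdia4 (0.074) for diet in WT, Hsp90b1 (0.052), Xbp1 (0.071) and Pdia4 (0.032) for diet in KO, Hspa5 (0.0063) for the interaction, and Hsp90b1 (0.065), Atf4 (-0.029), Pdia4 (0.053) and Herpud1 (-0.033) for diet averaged. With 1 sample left out, the ranges that crossed 0 were Atf4 (-0.091 to 0.17), Herpud1 (-0.12 to 0.071) and Pdia4 (-0.17 to 0.074) for diet in WT, Dnajb9 (-0.11 to 0.044) and Herpud1 (-0.076 to 0.034) for genotype on high fat, Calr (-0.041 to 0.076) for the interaction, Dnajb9 (-0.030 to 0.046) for genotype averaged, and Trib3 (-0.018 to 0.094) and Xbp1 (-0.0058 to 0.063) for diet averaged. Read numbers are unknown, which bears most on Trib3.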
